A study of Mus musculus with 51 samples.

Results

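The genes examined here build cholesterol and fatty acids in stromal cell lines of the mouse. They were taken from a list of 31 symbols chosen for their role in these pathways, each matched to probe sets that name exactly 1 gene, with the probe set of highest mean signal used per gene. Of the 31 genes, 30 were measured among 19938 genes in all, and Acat2 had no probe set of its own. By role, 6 belonged to the mevalonate steps, 11 to the sterol steps, 4 to regulation and 9 to fatty acid synthesis. No member lay under the first quartile of genes in any group.

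The study asked what distinguishes stromal clones that support hematopoietic stem and progenitor cells in culture from clones that do not. Transcripts were measured on mouse gene 1.0 ST arrays from Affymetrix, in 17 groups of 3 arrays, and the values are log2 signals, on which a difference of 1.00 is a doubling. The arrays had been normalized in 4 separate sets, so levels are compared only within a set. Set 1 held 3 pairs of confluent clones grown at 33 °C. These were UG26.1B6 (supportive) and UG26.3B5 (less-supportive) from the aorta-gonad-mesonephros region (AGM) of (CBAxC57BL/10)F1 embryos at day 11, AFT024 (supportive) and BFC012 (non-supportive) from C57BL/6 fetal liver (FL) at embryonic day 14.5, and BMC9 (supportive) and BMC10 (less-supportive) from adult bone marrow (BM) of the H2ts6 background. Set 2 held OP9, a supportive line from the fetal calvaria of (C57BL/6xC3H)F2-op/op mice, and BFC, a non-supportive clone of C57BL/6 FL at day 14.5 whose label carries no clone number. The labels of OP9 give 37 °C for replicates 1 and 2 and 33 °C for replicate 3, and BFC was grown at 33 °C. Set 3 held AFT024 and BFC012 sorted by absence of CD45, the leukocyte antigen, after 4 days alone or with c-Kit+Sca1+Lin- (KLS) cells of bone marrow, a fraction rich in stem and progenitor cells. Set 4 held 14F1-1 (adult BALB/c BM, supportive, 37 °C), 2012 and AFT011 (C57BL/6 FL at day 14.5, supportive and non-supportive), and AM14-1C4 and AM30-3F4 ((CBAxC57BL/10)F1 AGM at day 11, both supportive), the last 4 grown at 33 °C. All but OP9 are labelled as clones, so each of these groups stands for 1 clone. Whether the replicates came from different cultures is not labelled, and p-values therefore reflect array-to-array spread that may be technical. For comparisons of 2 confluent lines this spread is pooled over the 39 arrays of all 13 confluent lines. A pair whose own arrays spread more than the rest thus gets a smaller standard error than its arrays alone would give, and a tighter pair a larger one.

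Cells make cholesterol from acetyl-CoA through mevalonate, isoprenoid diphosphates and squalene, and fatty acids from acetyl-CoA through malonyl-CoA. When sterol in the endoplasmic reticulum falls, the transcription factors encoded by Srebf1 and Srebf2 are carried to the Golgi, released from the membrane and enter the nucleus, where they raise the genes of these pathways together. Insig1 holds them in the endoplasmic reticulum when sterol is plentiful. Marrow stromal cells can become adipocytes, which store fatty acids that they make or take up. The factors are known to act with the CCAAT-binding factor and with Sp1, which binds GC boxes.

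Promoters from RefSeq (GRCm38.p6) were found for 24 of the 31 listed genes, and the 250 bases before the start were searched on both strands. The CCAAT box, which reads ATTGG from the other strand, occurred in 19 of 24 members (79.2%) against 37.5% of all genes with a promoter. GGGCGG, the GC box, occurred in 20 of 24 (83.3%) against 35.4%. The E-box CACGTG, which reads the same on both strands, occurred in 4 (16.7%) against 6.86%. TCACNCCAC, a form of the sterol regulatory element, occurred in 1 (4.2%) against 1.22%. Over protein-coding genes alone the shares were 39.5% for CCAAT and 45.8% for the GC box. Those of 5 genes are shown because Hmgcs1, Idi1, Cyp51 and Msmo1 had some of the largest differences of the mevalonate and sterol steps, and Elovl6 of the fatty acid steps. Capitals mark CCAAT or ATTGG and, in Hmgcs1, the sterol regulatory element from base 137 to base 129 before the start.
Hmgcs1 (chr13:119690101-119690350, plus strand): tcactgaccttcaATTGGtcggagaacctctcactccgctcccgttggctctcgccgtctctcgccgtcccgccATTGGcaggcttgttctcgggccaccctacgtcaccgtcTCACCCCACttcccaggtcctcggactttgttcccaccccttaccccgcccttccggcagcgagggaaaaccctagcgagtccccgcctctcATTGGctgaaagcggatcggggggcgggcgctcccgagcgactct
Idi1 (chr13:8885356-8885605, plus strand): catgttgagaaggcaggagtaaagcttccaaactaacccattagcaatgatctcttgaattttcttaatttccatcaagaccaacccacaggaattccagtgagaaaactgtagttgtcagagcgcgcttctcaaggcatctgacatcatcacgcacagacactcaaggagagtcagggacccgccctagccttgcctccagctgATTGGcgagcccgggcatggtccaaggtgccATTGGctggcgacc
Cyp51 (chr5:4104698-4104947, minus strand): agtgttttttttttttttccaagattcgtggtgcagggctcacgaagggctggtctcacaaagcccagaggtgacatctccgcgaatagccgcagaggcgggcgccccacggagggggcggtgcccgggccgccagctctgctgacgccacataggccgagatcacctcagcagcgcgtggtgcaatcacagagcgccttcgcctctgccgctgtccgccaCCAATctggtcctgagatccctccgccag
Msmo1 (chr8:64733579-64733828, minus strand): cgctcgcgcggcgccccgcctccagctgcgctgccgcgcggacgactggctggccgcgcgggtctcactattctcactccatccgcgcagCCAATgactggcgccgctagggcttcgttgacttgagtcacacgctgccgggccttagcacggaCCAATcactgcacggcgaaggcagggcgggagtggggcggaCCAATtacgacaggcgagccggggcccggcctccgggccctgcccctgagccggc
Elovl6 (chr3:129532136-129532385, plus strand): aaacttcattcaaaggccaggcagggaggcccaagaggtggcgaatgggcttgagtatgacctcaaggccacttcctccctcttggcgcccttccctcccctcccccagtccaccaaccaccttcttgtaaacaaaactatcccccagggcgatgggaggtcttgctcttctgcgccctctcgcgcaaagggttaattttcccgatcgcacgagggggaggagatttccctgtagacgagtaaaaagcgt
Hmgcs1 and Msmo1 each held 3 CCAAT matches in this window, Idi1 held 2 and Cyp51 held 1. Elovl6 held none of the 4 motifs. Such a match is a description of letters and not a measured binding site.

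In all 17 groups between 7 and 9 of 10 stromal markers lay above the array median, while 0 or 1 of 10 hematopoietic and 0 to 2 of 7 hepatocyte markers did. Correlations between arrays of a group were at least 0.991 in set 1, 0.994 in sets 2 and 4, and 0.972 in set 3. The low values of set 3 came from array 1 of 3 groups (AFT024 alone, BFC012 alone and AFT024 with KLS cells), which correlated at 0.972 to 0.977 with the other arrays of their group, where arrays 2 and 3 correlated at 0.994 to 0.996. Differences were tested with limma across all genes, with p-values adjusted by Benjamini and Hochberg and a threshold of 0.05.

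**Figure D1:**
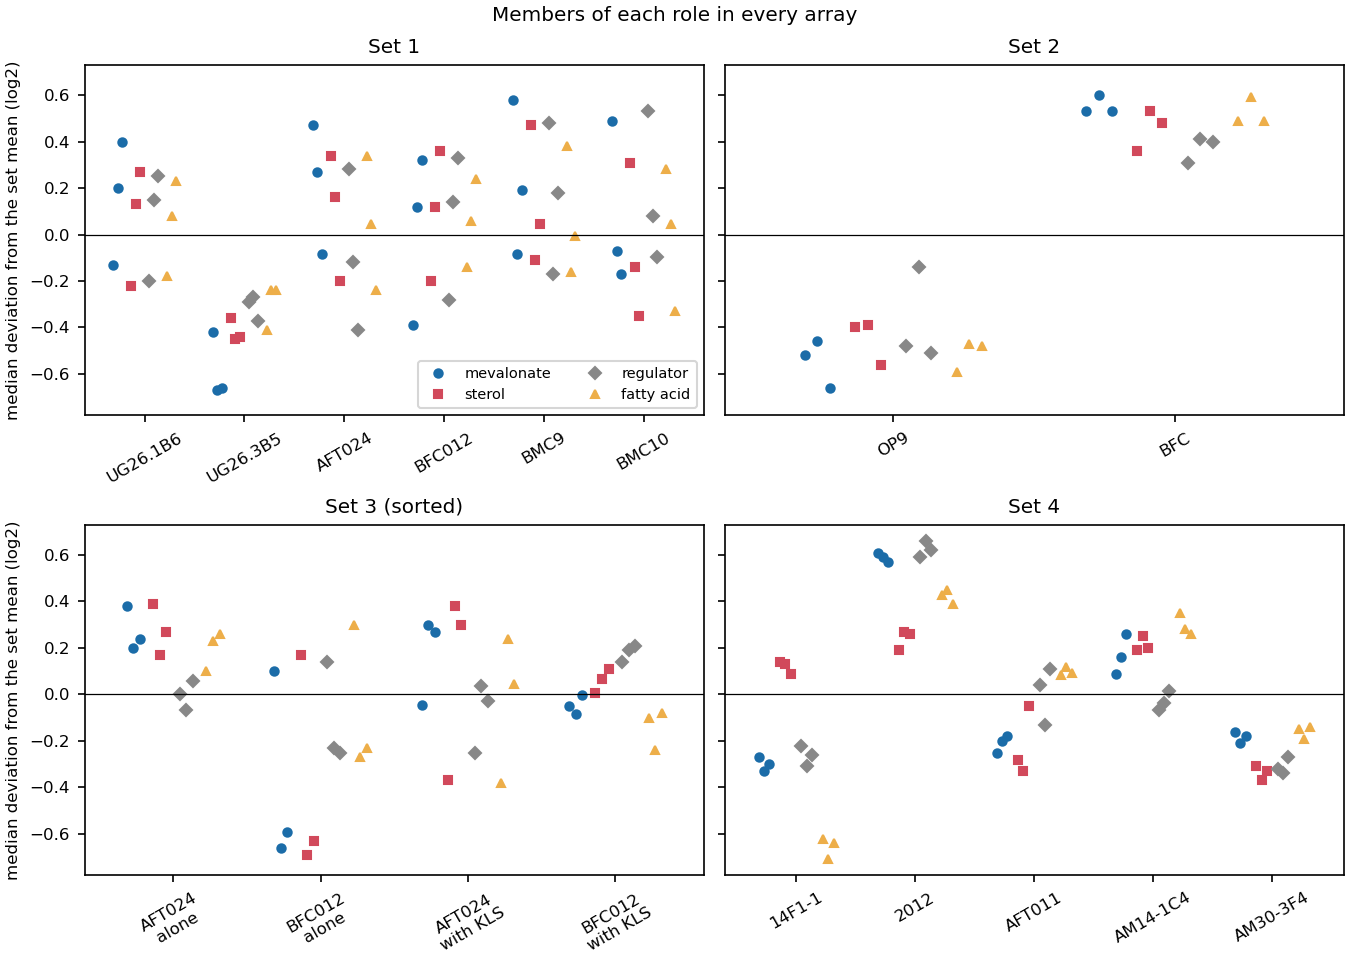
Median deviation (log2) of the members of each role from their mean over the arrays of a set, 1 symbol per array, in the 4 normalization sets. All 3 arrays of UG26.3B5 lie below 0 for every role, 14F1-1 is low for fatty acid genes and not for sterol genes, and array 1 of sorted BFC012 grown alone lies above its other arrays.

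In set 1 UG26.3B5 carried the least message for these pathways. It had the lowest mean of the 6 lines for 24 of 30 members, where it was lowest for 21.5% of all genes, and these included 15 of the 17 mevalonate and sterol genes. The median deviation of the members from the set mean was -0.40, -0.40 and -0.37 in its 3 arrays. In UG26.1B6 it was -0.19, 0.13 and 0.26, and in BMC9 it was 0.45, -0.14 and 0.066, so the other lines varied more between their own arrays. Over the 6 lines 14 of 30 members differed by limma's F test, where 46.9% of all genes did. The widest of these were Acss2, which makes acetyl-CoA from acetate, with line means 1.61 apart (adjusted p = 0.0489) and Mvd, which makes isopentenyl diphosphate, 1.44 apart (adjusted p = 0.00129). The count fell to 7 without replicate 2 or replicate 3 of UG26.3B5, and to 9 without replicate 2 of AFT024.

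The AGM pair set UG26.1B6 against UG26.3B5, clones of the same tissue and strain. Sterol synthesis genes were higher in UG26.1B6, the supportive clone. Of 30 members 12 were higher and 0 lower, where 8.56% of all genes passed (4.34% higher and 4.22% lower), and the median difference was 0.47 over the members against 0.034 over all genes. By role 5 of 6 mevalonate genes, 5 of 11 sterol genes, 1 of 4 regulators and 1 of 9 fatty acid genes were higher. Summed adipocyte markers were 12.13 to 12.23 in UG26.1B6 and 12.55 to 12.69 in UG26.3B5 (log2), proliferation markers 14.67 to 14.84 and 14.87 to 14.94, and epithelial markers 10.31 to 10.50 and 10.78 to 11.00 (1 of 5 lower). Of 9 adipocyte markers 1 was higher and 2 were lower in UG26.1B6, and their median (0.13) had the opposite sign to the sum. Of 9 proliferation markers 1 was higher and 4 were lower (median -0.16). In bulk cultures fewer cells of a type and less RNA per cell cannot be told apart, and the part of these markers in the result was not tested.

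Hmgcs1, which makes HMG-CoA, the substrate for mevalonate, stood at 11.17, 11.67 and 11.84 in UG26.1B6 and at 10.47, 10.61 and 10.42 in UG26.3B5. Its arrays did not overlap, and the difference of 1.06 (SE 0.238) is 2.09-fold (adjusted p = 0.0026). Idi1, which isomerises isopentenyl diphosphate, stood at 10.84, 11.20 and 11.36 against 10.31, 10.04 and 9.90, a difference of 1.05 (SE 0.181, adjusted p = 1.03e-04). Fdps, which joins these units into farnesyl diphosphate, was higher by 0.66 (SE 0.186), with 10.81, 11.06 and 11.27 against 10.43, 10.35 and 10.36. Pmvk, the kinase before Mvd, had means of 8.0 ± 0.209 and 7.30 ± 0.105 (SD, n = 3 here and in the values written this way below), higher by 0.70 (adjusted p = 8.42e-04). Mvd, with 9.15 ± 0.313 against 8.51 ± 0.0756, was higher by 0.64 (adjusted p = 0.049), while Mvk, the kinase before both, differed by 0.47 and did not pass (adjusted p = 0.211).

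Among the sterol steps Cyp51, which demethylates lanosterol, stood at 9.56, 9.79 and 9.83 in UG26.1B6 and at 9.09, 8.91 and 8.91 in UG26.3B5, a difference of 0.75 (SE 0.203, adjusted p = 0.014). Msmo1, an oxidase of the sterol methyl groups, was higher by 0.61, the squalene epoxidase Sqle by 0.58, the sterol desaturase Sc5d by 0.47 and the squalene synthase Fdft1 by 0.42. The arrays of the groups overlapped in Fdft1 alone among these. Of the later steps Ebp (0.058), Dhcr7 (0.17) and Hsd17b7 (0.26) did not pass. Srebf2, the main activator of sterol genes, stood at 11.40, 11.67 and 11.91 against 11.14, 11.02 and 10.91, higher by 0.64 (SE 0.141, adjusted p = 0.0024). Srebf1 (0.21), Insig1 (0.59) and the sterol carrier Stard4 (0.30) did not pass. In fatty acid synthesis Acaca, which makes malonyl-CoA, was higher by 0.35 (adjusted p = 0.0236), and Fasn, the fatty acid synthase, differed by 0.23 (adjusted p = 0.197). With the replicate number as a block, since same-numbered arrays of this pair deviated together, the count was 18 in place of 12. The members said above not to pass are those of the fit without this block. The share of all genes in the block fit is not given here. The count of 12 became 19 without replicate 1 of UG26.1B6. It became 5 without its replicate 2, 4 without its replicate 3, and 6 and 4 without replicates 2 and 3 of UG26.3B5.

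**Figure D2:**
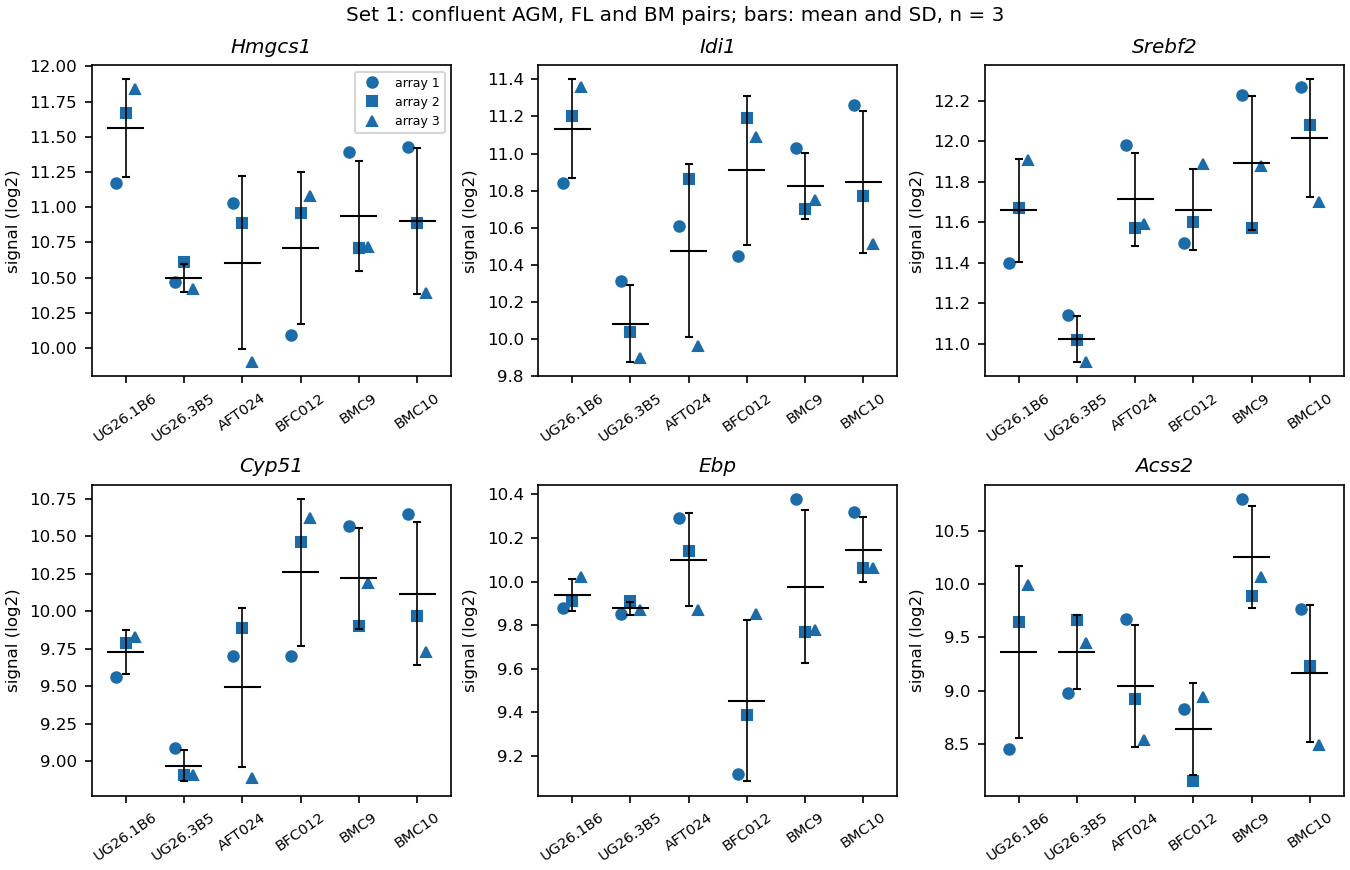
Signal (log2) of 6 members in each array of set 1, with the group mean and SD (n = 3). Hmgcs1, Idi1, Srebf2 and Cyp51 separate UG26.1B6 from UG26.3B5, Ebp separates AFT024 from BFC012, and Acss2 is highest in BMC9.

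The FL pair set AFT024 against BFC012, and here members went both ways. Of 30 members 4 were higher and 2 lower in AFT024, where 28.5% of all genes passed (15.6% higher and 12.9% lower), so the members' share was below that of all genes. The median difference was -0.025 against -0.015 over all genes. Ebp, an isomerase of the sterol ring, stood at 10.29, 10.14 and 9.87 in AFT024 and at 9.12, 9.39 and 9.85 in BFC012, a difference of 0.64 (SE 0.143, adjusted p = 5.81e-04), and the arrays of the groups barely separated. Nsdhl and Hsd17b7, which act at the same ring carbon, were higher by 0.60 and 0.49 (adjusted p = 0.0273 and 0.0392), with means of 11.48 ± 0.374 against 10.88 ± 0.331 and of 10.71 ± 0.204 against 10.22 ± 0.455. Pmvk stood at 8.62, 8.96 and 8.17 against 7.75, 8.16 and 8.09, higher by 0.59 (adjusted p = 0.00148). Cyp51 was lower in AFT024, at 9.70, 9.89 and 8.89 against 9.70, 10.46 and 10.62, a difference of -0.76 (SE 0.203, adjusted p = 0.00358). Elovl6, which lengthens palmitate, was lower by -0.57 (SE 0.148, adjusted p = 0.00283), at 10.63, 10.48 and 10.26 against 10.61, 11.13 and 11.33. The arrays overlapped in Cyp51, Elovl6, Nsdhl and Hsd17b7. Array 3 of AFT024 and array 1 of BFC012 were the low ones of their groups, with a median deviation of -0.20 and -0.19 over the members. Summed adipocyte markers were 11.80 to 12.24 in AFT024 and 10.09 to 10.33 in BFC012, and epithelial markers 9.10 to 9.36 and 9.83 to 9.95 (1 of 5 higher and 2 lower). Of 10 stromal markers 5 were higher and 2 lower (median 0.56). The part of these markers was not tested. A fit on the 6 arrays of this pair alone passed 1 member.

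The BM pair set BMC9 against BMC10, and 2 members passed, both higher in BMC9, where 15.5% of all genes passed (7.28% higher and 8.18% lower). Acss2 stood at 10.80, 9.89 and 10.07 against 9.77, 9.23 and 8.49, higher by 1.09 (SE 0.295, adjusted p = 0.00855). Tm7sf2, a sterol reductase, stood at 9.29, 7.85 and 7.82 against 8.09, 7.59 and 7.19, higher by 0.70 (SE 0.241, adjusted p = 0.0447), with overlapping arrays. Its SD was 0.837 in BMC9 and 0.451 in BMC10, while that SE is pooled over all confluent lines. The other 28 members did not pass, and their median with those 2 was 0.064. Array 1 was the high one in both clones, for example in Insig1 with 11.84, 10.67 and 11.39 against 11.94, 11.02 and 10.93. The count was 0 in a fit on the 6 arrays of this pair alone. It was also 0 without replicate 1 of BMC9 or replicate 3 of BMC10, and 1 without replicate 2 of BMC10. Summed adipocyte markers were 12.57 to 12.79 in BMC9 and 11.48 to 12.11 in BMC10, and stromal markers 15.10 to 15.37 and 14.71 to 15.01 (5 of 10 higher and 1 lower). Their part was not tested.

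Whether these pairs differed from each other was tested directly, in contrasts chosen after the values were seen. The AGM difference exceeded the FL difference for 11 members and fell below it for 1, Ebp, where 24.0% of all genes differed between the pairs. Cyp51 differed most, with 0.75 in the AGM pair and -0.76 in the FL pair (difference 1.52, SE 0.287, adjusted p = 1.03e-04), followed by Idi1 with 1.05 and -0.44 (1.48, SE 0.256). Against the BM pair the AGM difference was larger for 4 members, Idi1, Hmgcs1, Srebf2 and Sc5d, and smaller for 0 (12.6% of all genes). Between the FL and BM pairs 2 members were higher and 1 lower (25.5% of all genes). These shares of all genes count both directions and were not split, so the members' split by direction has nothing to be set against. Idi1, Hmgcs1, Srebf2 and Sc5d thus had a larger difference in the AGM pair than in either other pair of the set. The 4 of 30 members against the BM pair lie near the share of all genes and are no result about the members as a group. Hmgcs1 did not pass over the 6 lines of the set by the F test (adjusted p = 0.102). The tests between pairs were not rerun under the alternatives described below.

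The second FL pair set 2012 against AFT011, and the supportive clone had the higher levels, as in the AGM pair. In the first FL pair members had gone both ways, and in the BM pair few had passed. Of 30 members 16 were higher in 2012 and 1, Ebp, was lower, where 27.6% of all genes passed (13.4% higher and 14.1% lower). The median difference was 0.49 over the members and 0.073 over all genes. Of the mevalonate genes 5 of 6 were higher, of the sterol genes 4 of 11, of the regulators 3 of 4 and of the fatty acid genes 4 of 9. Summed proliferation markers were 14.57 to 14.69 in 2012 and 14.74 to 14.77 in AFT011, adipocyte markers 11.17 to 11.24 and 10.72 to 10.83, and stromal markers 14.95 to 15.07 and 14.83 to 14.90. Their part was not tested.

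Msmo1 stood at 11.34, 11.49 and 11.39 in 2012 and at 10.14, 9.96 and 10.25 in AFT011, a difference of 1.29 (SE 0.179) or 2.44-fold (adjusted p = 7.71e-07). Idi1 stood at 10.87, 11.20 and 11.31 against 10.03, 10.08 and 10.18, higher by 1.03 (SE 0.181). Sqle, a rate-controlling step after mevalonate, stood at 10.90, 11.13 and 11.04 against 10.04, 9.86 and 10.19, higher by 0.99 (SE 0.175). None of these arrays overlapped. Hmgcs1 was higher by 0.98 (10.68 ± 0.0575 against 9.70 ± 0.0635), Fdps by 0.95 (11.16 ± 0.114 against 10.21 ± 0.117) and Insig1 by 0.95 (10.50 ± 0.0396 against 9.55 ± 0.160). Mvd was higher by 0.94, Cyp51 by 0.89, the lanosterol synthase Lss by 0.77 and Pmvk by 0.53. Srebf2 stood at 11.54, 11.54 and 11.55 against 10.74, 10.61 and 10.76, higher by 0.84 (SE 0.141, adjusted p = 1.67e-05), and Stard4 was higher by 0.71. In the fatty acid branch Elovl6 was higher by 0.79 (11.28, 11.26 and 11.24 against 10.42, 10.41 and 10.59), Acly, which makes cytosolic acetyl-CoA from citrate, by 0.46, Fasn by 0.38 and Acaca by 0.34. The desaturases Scd2 (0.056), Fads1 (0.17) and Fads2 (-0.073) did not pass. Ebp went the other way, with 8.31, 8.58 and 8.39 against 8.93, 8.83 and 9.05, lower by -0.51 (SE 0.143, adjusted p = 0.00704).

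The comparison of AM14-1C4 with AM30-3F4 involved 2 supportive AGM clones of the same strain. Of 30 members 14 were higher in AM14-1C4 and 0 lower, where 31.6% of all genes passed (15.9% higher and 15.8% lower). The median difference was 0.44 against 0.0095 over all genes. A fit on these 6 arrays alone passed 24 members, and the share of all genes in that fit is not given here. Acly stood at 11.36, 11.34 and 11.24 against 10.10, 10.11 and 10.08, higher by 1.22 (SE 0.118, adjusted p = 2.72e-10). Fdft1, the enzyme that commits farnesyl diphosphate to sterols, stood at 11.55, 11.50 and 11.39 against 10.45, 10.30 and 10.27, higher by 1.14 (SE 0.133). Cyp51 was higher by 1.11 (9.71, 9.71 and 9.78 against 8.73, 8.57 and 8.58) and Msmo1 by 1.08 (10.78, 10.91 and 10.92 against 9.83, 9.80 and 9.75). Insig1 was higher by 0.91 (9.69 ± 0.0882 against 8.78 ± 0.185) and Sqle by 0.90 (10.56 ± 0.0491 against 9.66 ± 0.0753). No arrays of these 6 genes overlapped between the clones. Fatty acid genes made up 6 of the 14, among them Scd1 (0.59), Fads1 (0.54), Scd2 (0.52) and Fads2 (0.38). Srebf2 differed by 0.10 and did not pass (adjusted p = 0.726), nor did Fdps (0.37), Lss (0.56) or Nsdhl (0.48). Both clones carry the supportive label. Beside this result, 2 of 10 hematopoietic markers were higher in AM14-1C4, Lyz2 by 4.00 and Csf1r by 1.06, while Ptprc differed by -0.071 and Spi1 by -0.052, and neither passed. The summed hematopoietic markers were 10.34 to 10.50 in AM14-1C4 and 9.30 to 9.37 in AM30-3F4. Adipocyte markers were 11.81 to 11.88 and 12.14 to 12.22, and proliferation markers 14.50 to 14.55 and 14.73 to 14.76. Of 9 adipocyte markers 3 were higher and 1 was lower in AM14-1C4 (median 0.081), although their sum was lower. Of 9 proliferation markers 1 was higher and 4 were lower (median -0.16). The part of these markers was not tested.

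**Figure D3:**
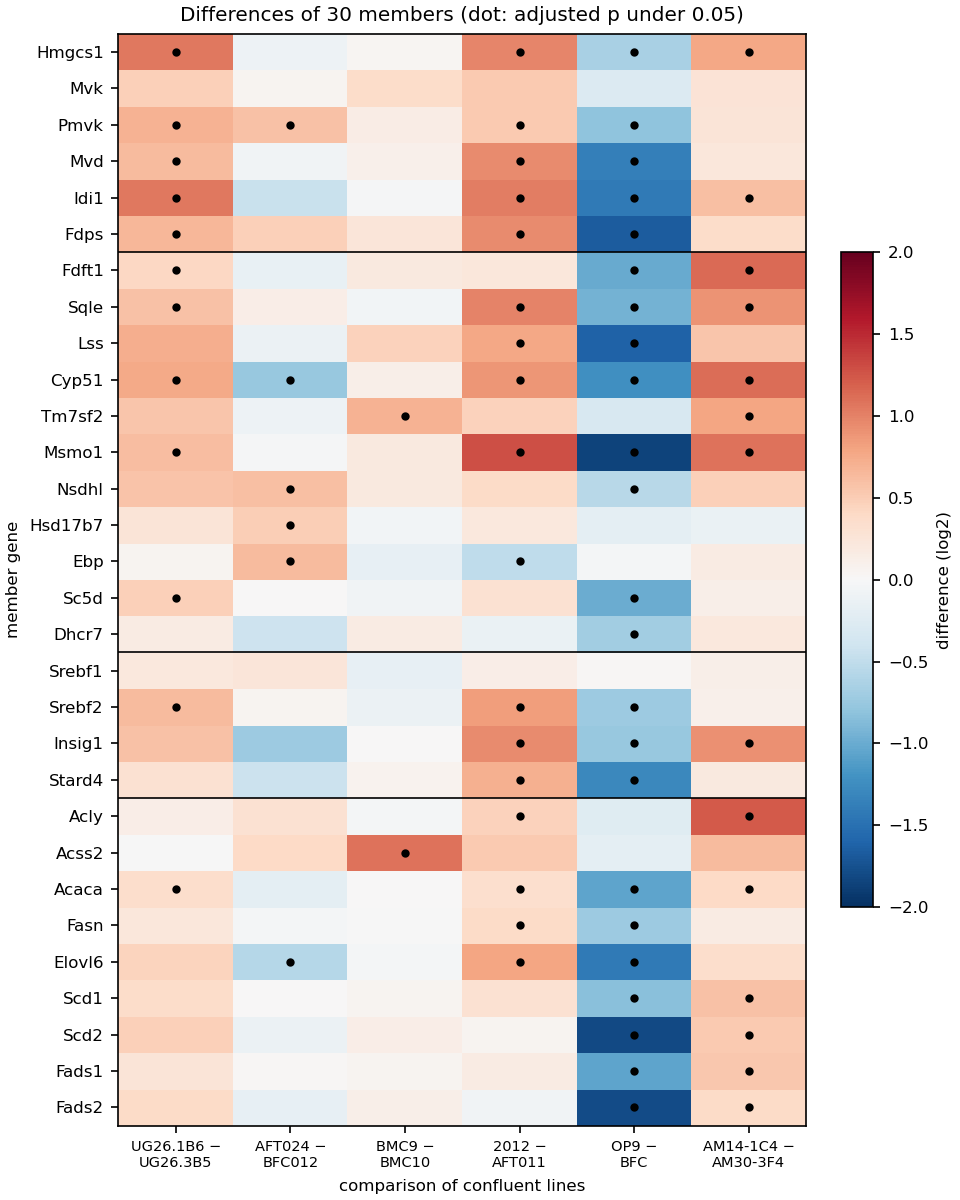
Difference (log2, colour) of each of the 30 members in the 6 comparisons of confluent lines, with dots for adjusted p under 0.05 and lines between the roles (mevalonate, sterol, regulators, fatty acid). The column of OP9 minus BFC is blue for 29 of 30 members, and the columns of AFT024 minus BFC012 and BMC9 minus BMC10 hold 6 and 2 dots.

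OP9 had lower levels than BFC in nearly the whole pathway. Of 30 members 23 were lower in OP9 and 0 higher, where 34.4% of all genes passed (17.5% higher and 16.9% lower), and the median difference was -0.89 against 0.014 over all genes. The lower genes were 5 of 6 mevalonate genes, 8 of 11 sterol genes, 3 of 4 regulators and 7 of 9 fatty acid genes. The direction is opposite to that of the AGM and the second FL pair, although OP9 is the supportive line here. Tissue, strain and support differ together between these lines, as does the labelled temperature for some OP9 arrays, and these cannot be told apart.

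Msmo1 stood at 7.0, 7.40 and 7.31 in OP9 and at 8.98, 9.27 and 9.0 in BFC, lower by -1.85 (SE 0.179) or 3.6-fold (adjusted p = 2.12e-10). Scd2, a desaturase that makes monounsaturated fatty acids, stood at 6.72, 7.25 and 6.73 against 8.60, 8.74 and 8.77, lower by -1.80 (SE 0.183). Fads2, which desaturates polyunsaturated fatty acids, stood at 6.13, 6.33 and 6.01 against 7.93, 7.94 and 7.98, lower by -1.79 (SE 0.137). These 3 genes show OP9 below BFC in every array by more than 3-fold on average. Fdps stood at 7.01, 7.09 and 7.13 against 8.68, 8.73 and 8.81, lower by -1.66. Lss stood at 5.07, 4.91 and 4.78 against 6.57, 6.58 and 6.47, lower by -1.62. Its OP9 values lay below the array medians over all genes, which were 5.21 to 5.29 in this set. Idi1 (6.17 ± 0.0993 against 7.58 ± 0.0328) and Elovl6 (6.97 ± 0.108 against 8.38 ± 0.185) were each lower by -1.41. Mvd was lower by -1.37, Stard4 by -1.29 and Cyp51 by -1.23. Smaller differences that passed included Acaca and Fads1 (-1.06 each), Srebf2 and Fasn (-0.73 each), Dhcr7, which performs the closing reduction of cholesterol synthesis (-0.69), and Hmgcs1 (-0.65). Srebf1 (0.017), Acly (-0.24), Acss2 (-0.20), Mvk (-0.27), Tm7sf2 (-0.32), Hsd17b7 (-0.20) and Ebp (-0.036) did not pass. The OP9 array labelled 33 °C, compared alone with BFC, gave 20 members past the threshold and a median of -0.96. That comparison has 1 array of OP9, which is assumed to vary like the other groups of the fit, so it is no replicated test at matched temperature.

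Fat cell genes ran the other way in the same arrays. Of 9 measured adipocyte markers 8 were higher in OP9, among them the hormone Adipoq by 5.93, the fatty acid carrier Fabp4 by 6.54 and the lipase Lpl by 5.96, and their summed level was 12.11 to 12.23 in OP9 and 8.34 to 8.39 in BFC. Proliferation markers were lower in 8 of 9, with summed levels of 11.42 to 11.71 and 12.27 to 12.30. Stromal markers were higher in 7 of 10 and lower in 1 (median 0.83), with summed levels of 12.97 to 12.99 in OP9 and 11.80 to 11.89 in BFC. The part of these markers in the result was not tested. Of 13 measured genes of fatty acid oxidation 8 were higher in OP9 and 0 lower, with a median of 0.39, led by the acyl-CoA dehydrogenases Acadm (1.91) and Acadl (1.23) and the carnitine transferase Cpt1a (0.91). Of 13 genes of sterol uptake and traffic 5 were higher and 0 lower (median 0.26), led by the lysosomal sterol carrier Npc2 (1.76), the receptor Lrp1 (1.75) and the sterol transporter Gramd1b (1.08). Among 9 other genes that control the Srebf factors 1 was higher and 3 were lower (median -0.043), namely the protease Mbtps1 (-0.85), Erlin1 (-0.54) and Erlin2 (-0.49). Of 11 genes of the oxysterol response 4 were higher and 3 lower, the largest being the oxysterol hydroxylase Cyp39a1 (-1.43), the ubiquitin ligase Mylip (1.40) and the oxysterol receptor Nr1h3 (0.98). Of 19 other genes of fatty acid and glyceride synthesis 8 were higher and 5 lower, the largest being the acyltransferases Gpam (1.18) and Dgat1 (0.82) and the elongase Elovl5 (-0.77). Of 10 genes of the isoprenoid branch 1 was higher and 4 were lower, the largest being Pdss2 (-0.63), Nus1 (0.62) and the farnesyltransferase subunit Fnta (-0.56).

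In the AGM pair, where 4.34% of all genes were higher and 4.22% lower, the same neighbouring lists were counted. Of 13 sterol uptake genes 1 was higher, the lipoprotein receptor Vldlr (1.01), and 0 were lower (median -0.073 against 0.034 over all genes). Of 11 oxysterol genes 1 was higher and 3 lower, the largest being Ch25h, which makes an oxysterol that represses the Srebf factors (-0.96), the cholesteryl ester hydrolase Nceh1 (-0.51) and Cyp27a1 (0.43). Of 9 control genes 1 was higher, the deacetylase Sirt6 (0.73), and 0 were lower, and of 10 isoprenoid genes 0 passed, with a median of -0.0039. The citrate carrier Slc25a1 (0.68), the elongase Elovl7 (0.59) and Dgat1 (0.51) led 4 higher and 1 lower of 19 other fatty acid genes (median 0.15). Of 13 oxidation genes 0 were higher and 2 lower, Hadh (-0.31) and Acadl (-0.29). In the FL pair, where 28.5% of all genes passed (15.6% higher and 12.9% lower), 7 of 11 oxysterol genes were higher in AFT024 and 1 was lower (median 0.47 against -0.015 over all genes). The sterol exporter Abcg1 (1.87), Cyp27a1 (1.67) and Mylip (1.34) were the largest. In that pair 6 of 13 uptake genes were higher and 4 lower, led by Gramd1b (2.06), Scarb1 (1.26) and Lrp1 (0.81), and 7 of 13 oxidation genes were higher and 2 lower, led by Ehhadh (-0.99), Acadm (0.96) and Cpt1a (0.93).

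In set 4 all 30 members differed over the 5 lines by the F test, where 61.0% of all genes did, and the widest were Scd2, Insig1 and Msmo1 with line means 1.92, 1.72 and 1.61 apart. The narrowest was Dhcr7, 0.21 apart (adjusted p = 0.0141). The line 2012 was highest for 19 of 30 members, where it was highest for 29.3% of all genes. The line 14F1-1 was lowest for 7 of 9 fatty acid genes and for 5 of 17 mevalonate and sterol genes. It was lowest for 22.6% of all genes, and the 5 of 17 lie near that share. AM30-3F4 was lowest for 7 of the same 17, where it was lowest for 14.1% of all genes.

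The position of 14F1-1 was tested against the mean of the other 4 lines in a contrast chosen after the levels were seen. Of 30 members 2 were higher and 12 lower, where 40.1% of all genes passed (19.1% higher and 20.9% lower). A fit on set 4 alone passed 25 members in either direction, and the share of all genes in that fit is not given here. Of the fatty acid genes 7 of 9 were lower, with a median difference of -0.82. Of the 6 mevalonate genes 2 were lower and 0 higher (median -0.36), and of the 4 regulators 2 were lower, Stard4 by -0.65 and Srebf2 by -0.45 (median -0.33). Of the 11 sterol genes 2 were higher and 1 was lower, with a median of 0.15. Differences between these roles were not tested. Scd2 stood at 10.74, 10.64 and 10.71 in 14F1-1 and between 11.58 and 12.66 in the other 12 arrays, lower by -1.55 (SE 0.145, adjusted p = 5.19e-11). Fads2 stood at 9.94, 9.82 and 9.76 against 10.76 to 11.45, lower by -1.35 (SE 0.109). Fasn stood at 10.22, 10.13 and 10.13 against 11.07 to 11.54, lower by -1.19 (SE 0.0826), and Acaca at 8.93, 8.92 and 9.01 against 9.69 to 10.54, lower by -1.17 (SE 0.0801). In each of these genes 14F1-1 lay below every other array of the set. Fads1, at 10.91, 10.82 and 10.89, was lower by -0.82 and Elovl6, at 10.19, 10.13 and 10.14, by -0.72, while Scd1 differed by -0.15 and did not pass. Sqle was higher by 0.55, at 10.85, 10.87 and 10.89, and Ebp by 0.53, at 9.31, 9.16 and 9.44, while Sc5d was lower by -0.70, Mvd by -0.58 and Pmvk by -0.37. Of 19 other fatty acid genes 6 were higher and 3 lower (median 0.15), the largest being the mitochondrial synthase Oxsm (0.92), Elovl7 (-0.87) and the malic enzyme Me1 (0.58), and of 13 oxidation genes 7 were higher and 1 was lower (median 0.23), led by Acadl (1.27), Ehhadh (1.02) and Slc25a20 (-0.92). Summed adipocyte markers were 13 to 13.03 in 14F1-1 and 10.72 to 12.22 in the other lines, proliferation markers 14.37 to 14.42 and 14.50 to 14.77, and epithelial markers 9.11 to 9.13 and 9.17 to 9.57. Their part was not tested. This line alone in its set was grown at 37 °C and came from BALB/c bone marrow, so clone, tissue, strain and temperature cannot be told apart.

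**Figure D4:**
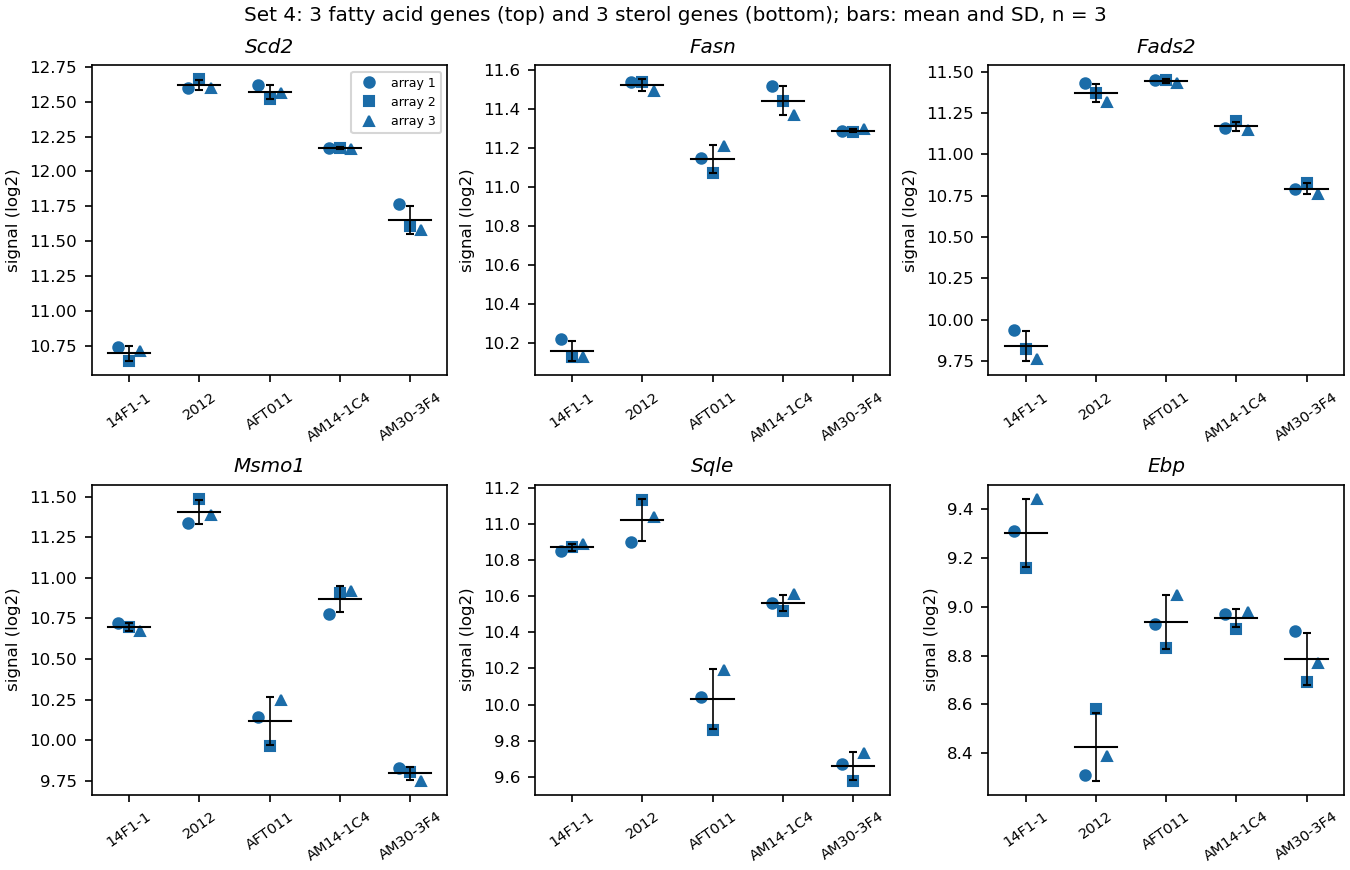
Signal (log2) of 6 members in each array of set 4, with the group mean and SD (n = 3). 14F1-1 is below every other array for Scd2, Fasn and Fads2, lies near 2012 for Sqle and is highest for Ebp.

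In the sorted stroma grown alone, members of the sterol branch were higher in AFT024 than in BFC012. Of 30 members 5 were higher and 0 lower, all mevalonate or sterol genes, where 7.32% of all genes passed (3.51% higher and 3.81% lower). The median difference was 0.32 over the members and -0.046 over all genes. Hmgcs1 stood at 8.31, 8.48 and 8.51 in AFT024 and at 7.94, 7.14 and 6.94 in BFC012, higher by 1.10 (SE 0.216, adjusted p = 0.0115). Fdps stood at 8.51, 8.45 and 8.57 against 8.0, 6.77 and 7.01, higher by 1.25 (SE 0.327, adjusted p = 0.0421). Hsd17b7, a sterol ketone reductase, stood at 8.06, 8.24 and 8.43 against 7.63, 6.26 and 6.79, higher by 1.35 (SE 0.357, adjusted p = 0.0441). Array 1 of BFC012 lay far above the other arrays of its group in all 3 genes and still below AFT024. Sqle stood at 8.84, 8.63 and 8.87 against 8.41, 7.76 and 7.95 (0.74), and Fdft1 at 8.26, 8.71 and 8.57 against 8.17, 7.56 and 7.66 (0.71), both past the threshold. Msmo1 had the largest difference, 1.49 (SE 0.553), and did not pass, with 9.0, 8.91 and 9.08 against 8.94, 6.88 and 6.72. Idi1 stood at 7.08, 6.72 and 6.87 against 7.04, 5.24 and 4.92. With the replicate number as a block over all sorted groups the count was 3. Fdps (adjusted p = 0.0657) and Hsd17b7 (adjusted p = 0.0687) were then no longer past the limma threshold. Deviations of same-numbered arrays of these 2 groups correlated at 0.671, 0.517 and 0.466, but arrays of different numbers reached 0.501, so the numbers do not clearly mark pairs. Without the 3 arrays numbered 1 that stood apart the count was 19 higher and 0 lower (19.6% of all genes, 9.98% higher and 9.58% lower), with Msmo1 at 2.20 and Idi1 at 1.72. A fit on these 6 arrays alone passed 0. The count was 13 without only array 1 of BFC012, with no share of all genes given here for that fit. It became 2, 1 and 1 without array 1, 2 or 3 of AFT024, and 0 and 1 without array 2 or 3 of BFC012.

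After culture with KLS cells AFT024 was higher than BFC012 in Acss2 and Scd1 and lower in Insig1 and Dhcr7, and 26 of 30 members did not pass, where 11.6% of all genes passed (6.09% higher and 5.52% lower). Acss2 stood at 6.12, 6.86 and 6.65 against 5.64, 5.45 and 5.64, higher by 0.97 (SE 0.243, adjusted p = 0.0252). Insig1 stood at 7.39, 7.92 and 7.84 against 8.55, 8.55 and 8.32, lower by -0.76 (SE 0.199, adjusted p = 0.0314). The arrays of the clones did not overlap in either gene. Scd1 was higher by 0.67 (9.23 ± 0.301 against 8.56 ± 0.123) and Dhcr7 lower by -0.45 (5.71 ± 0.0518 against 6.16 ± 0.0681). Without the 3 arrays the counts were 12 higher and 2 lower (26.9% of all genes, 14.2% higher and 12.6% lower), and the higher ones then included Hsd17b7 (1.14), Fdps (0.95), Hmgcs1 (0.61) and Sqle (0.39), which also passed in the clones grown alone. The count of 4 fell to 1 and 0 without array 2 or 3 of AFT024, and to 0, 2 and 0 without array 1, 2 or 3 of BFC012.

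The responses to KLS cells came from the same sorted arrays. In AFT024 0 of 30 members passed with against without KLS cells, where 0.351% of all genes passed. The closest were Fads2 (-0.58, adjusted p = 0.119) and Dhcr7 (-0.44, adjusted p = 0.157), whose arrays did not overlap. In BFC012 0 of 30 passed, where 0.883% of all genes did. Fdft1 (0.58, adjusted p = 0.165) and Insig1 (0.62, adjusted p = 0.257) were the closest, and Msmo1 differed by 0.94 (SE 0.553). Without array 1 of BFC012 grown alone 3 members passed. The responses of the clones differed from each other in 0 of 30 members, where 0.0401% of all genes differed. With an array each of 3 groups standing apart, these comparisons had little precision: standard errors of the members reached 0.553 for a response and 0.782 for the difference of responses.

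Array 1 of BFC012 grown alone carried sterol genes near the level of AFT024, and arrays 2 and 3 did not. Array 1 of AFT024 with KLS cells lay low, for example in Msmo1 with 7.60, 9.33 and 9.19 and in Lss with 5.22, 6.29 and 6.26. In BFC012 with KLS cells all 3 arrays were close, with Msmo1 at 8.26, 8.48 and 8.61. Without the 3 arrays that stood apart over all genes, a choice made after they were seen, 16 members were higher and 2 lower in BFC012 with KLS cells (10.4% of all genes, 5.40% higher and 4.98% lower). These 16 included 12 of the 17 mevalonate and sterol genes, among them Msmo1 (1.66), Idi1 (1.56), Hmgcs1 (0.94), Fdps (0.91) and Cyp51 (0.90), and the regulators Stard4 (0.65), Insig1 (0.62) and Srebf2 (0.45). Scd2 (-0.59) and Fads2 (-0.36) were the lower ones. In AFT024, under the same choice, Acss2 was higher (0.73) and Fads2 (-0.64), Elovl6 (-0.55) and Dhcr7 (-0.48) were lower (5.99% of all genes, 3.45% higher and 2.55% lower). The responses then differed in 10 members, 2 higher and 8 lower in AFT024 (3.80% of all genes, 1.93% higher and 1.88% lower), led by Idi1 (-1.54) and Msmo1 (-1.39). That choice leaves 2 arrays in each of 3 groups, and the counts of 0 from all arrays stand beside it. Summed adipocyte markers were 9.93 to 10.08 in AFT024 alone and 11.16 to 11.72 with KLS cells, and 8.70 to 8.92 and 9.21 to 9.57 in BFC012. From all arrays 1 of 9 adipocyte markers was higher with KLS cells and 0 were lower in each clone. Their median difference was 0.63 in AFT024 and 0.054 in BFC012. Proliferation markers spread over 11.60 to 12.84 within BFC012 alone, and 0 of 10 hematopoietic markers lay above the array median in the sorted groups. The part of these markers was not tested.

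**Figure D5:**
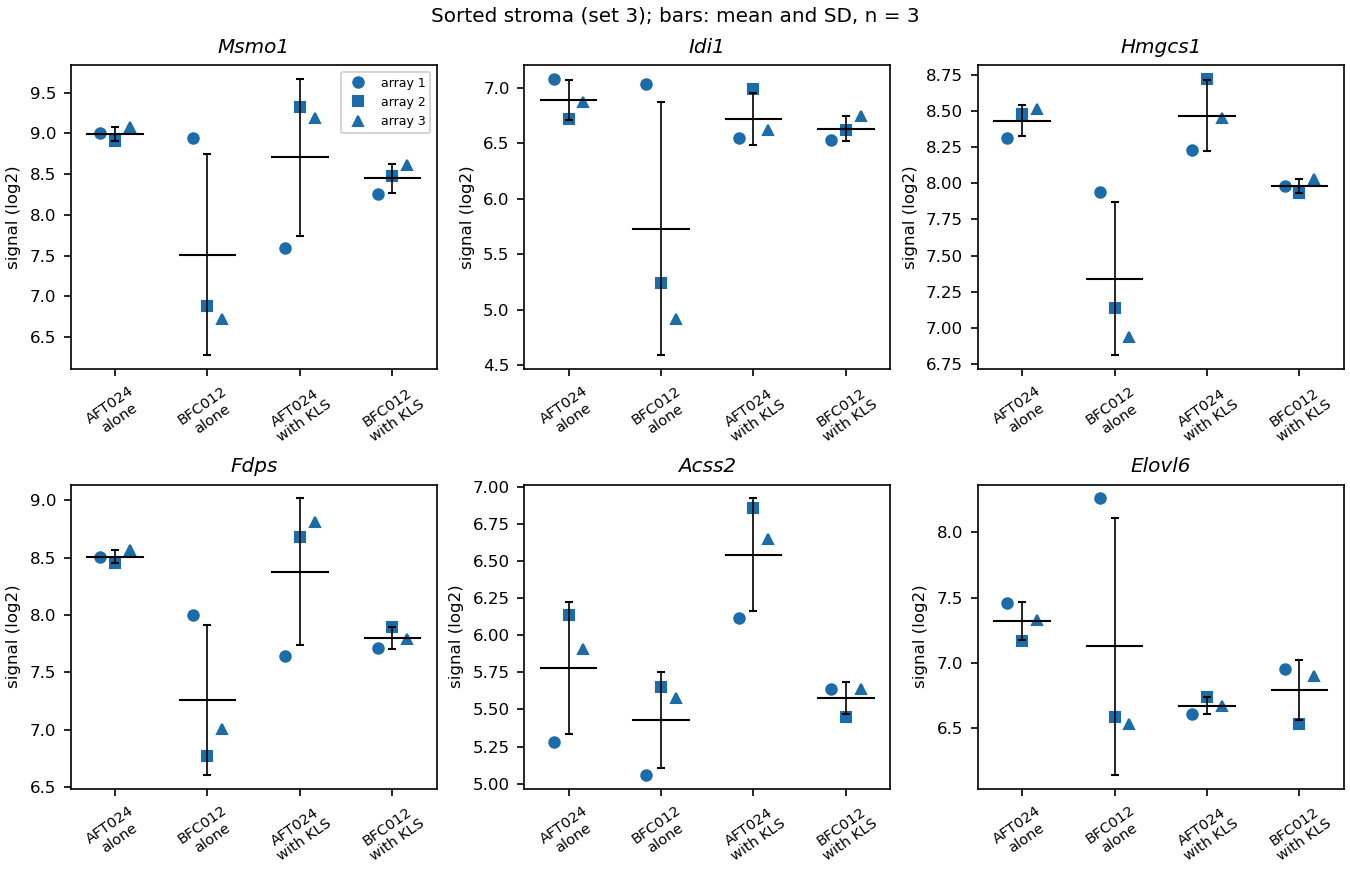
Signal (log2) of 6 members in each array of the sorted stroma, with the group mean and SD (n = 3) and a symbol for each replicate number. In BFC012 grown alone array 1 lies above arrays 2 and 3 for Msmo1, Idi1, Hmgcs1, Fdps and Elovl6, and in AFT024 with KLS cells it lies below them for Msmo1 and Fdps.

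Over the 6 comparisons of confluent lines, which share no array, members passed in different numbers of them. Cyp51 passed in 5, higher in the AGM, second FL and AM comparisons and lower in the FL pair and in OP9. Hmgcs1, Idi1, Pmvk, Sqle, Msmo1 and Acaca passed in 4. Mvk and Srebf1 passed in 0 of the 6, although both differed over the lines of set 4 by the F test (range of means 0.78 and 0.54), and Hsd17b7, Dhcr7 and Acss2 passed in 1 each. Idi1, Fdft1 and Acaca each had another probe set. In OP9 minus BFC it read -1.54, -1.38 and -0.84 against the -1.41, -1.01 and -1.06 given for these genes. Scd1 and Scd2 are close relatives, and cross-hybridisation between them was not tested.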

How the data were processed

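RNA (100 ng) from 51 samples of mouse stromal lines, 17 groups of 3, was measured on Affymetrix mouse gene 1.0 ST arrays. The deposited values are log2 signals that the authors summarised with RMA in Partek, per the submitters' processing notes (versions not given in the sources used here), in 4 separately normalized sets. RMA fixes each array's distribution within a set, so only levels relative to the other genes of a set are measured, and the number of arrays limits the precision. Of 35556 probe sets, 21789 carried 1 gene symbol, 1621 several and 12146 none in the platform annotation, and only the first kind was used. The probe set of highest mean signal stood for each of 19938 genes. All 30 measured members were found in the RefSeq table by Entrez ID.

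Group means were fitted in limma 3.58.1 (R 4.3.3), over the 39 confluent arrays of 13 lines and apart over the 12 sorted arrays, with the Benjamini-Hochberg adjustment of each contrast taken across the 19938 genes and a threshold of 0.05. No contrast crosses a set. The F tests used the 18 arrays of set 1 and the 15 of set 4. The scripts were tested on simulated data. Alternatives changed the probe set rule, added a filter on low signal, quantile normalized the arrays together, added the replicate number as a block, used only the arrays compared, or left out each array. The replicate numbers paired the samples (all 3 correlations of same-numbered deviations over 0.1) in UG26.1B6 and UG26.3B5 (0.535, 0.327 and 0.468), in BMC9 and BMC10 (0.323, 0.116 and 0.435) and in the sorted clones grown alone (0.671, 0.517 and 0.466). Arrays of different numbers reached 0.103, 0.194 and 0.501 in these 3 comparisons, so in the last 2 they exceeded some same-numbered values. The pairing rests on the data, since the labels only number the replicates. Every measured member is named. Per contrast up to 6 members past the threshold with the largest differences are given in each group, and up to 3 genes of each neighbouring list in the contrasts described. The members and lists were chosen with earlier results of these data known. Markers were summed as the log2 of their summed linear signals. Python 3.11.15 with matplotlib 3.10.9 made the figures.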

Additional observations from a re-analysis of the deposited data

Results flagged for a closer look

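Pairs of set 1 had unequal differences for some members by limma's test of the difference between pairs, chosen after the values were seen. The AGM difference minus the FL difference was 1.52 for Cyp51, 1.48 for Idi1, 1.32 for Insig1, 1.17 for Hmgcs1 and 1.02 for Elovl6. It was 0.72 for Stard4, 0.58 for Srebf2, 0.57 for Fdft1, 0.55 for Acaca and for Fads2, 0.47 for Sc5d and -0.59 for Ebp, with adjusted p from 2.73e-05 (Idi1) to 0.0478 (Sc5d). Insig1 (0.59 and -0.73) and Stard4 (0.30 and -0.43) passed in this test of the difference although neither passed within either pair. By limma's F test over the 6 lines of set 1, Insig1, Stard4, Hmgcs1 and Fdft1 did not pass (adjusted p = 0.384, 0.445, 0.102 and 0.282). The AGM difference minus the BM difference was 1.07 for Idi1, 1.03 for Hmgcs1, 0.76 for Srebf2 and 0.54 for Sc5d. The FL difference minus the BM difference was 0.81 for Ebp, 0.41 for Srebf1 and -0.87 for Cyp51. Srebf1 passed in no comparison of 2 confluent lines and here had 0.24 in the FL pair and -0.17 in the BM pair (adjusted p = 0.0397).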

How the results depend on the processing

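Under the alternatives run, directions were followed only for the members with the largest differences past the threshold in each contrast. None of these directions reversed: 497 values stayed past the threshold and 89 did not. Where more members passed in a contrast, those with smaller differences were not checked for reversal. Of the counts of members past the threshold, 154 stayed within 1.5 times and 39 did not. Except for the fits without the 3 sorted arrays that stood apart, shares of all genes are not given beside these counts. With only the arrays of the groups compared the count became 1 for AFT024 minus BFC012, 0 for BMC9 minus BMC10, 24 in AM14-1C4 minus AM30-3F4, 25 for 14F1-1, 0 in the sorted clones alone and 1 in the response of BFC012. With the replicate block it became 11 in the FL pair, where the numbers do not pair the samples, and 3 in the sorted clones alone. In the AGM pair, where the numbers do pair the samples, it became 18 in place of 12. The block moved no other count by over 1.5 times. Quantile normalization left 1 in the BM pair. Without the 3 sorted arrays that stood apart, chosen after seeing the data, it became 19 in the clones alone, 14 with KLS cells, 4 in the response of AFT024, 18 in that of BFC012 and 10 in their difference. Leaving out each array in turn gave 4 to 19 for UG26.1B6 minus UG26.3B5, 5 to 8 for AFT024 minus BFC012, 0 to 3 for BMC9 minus BMC10, 14 to 17 for 2012 minus AFT011, 20 to 22 in OP9 minus BFC and 11 to 13 in AM14-1C4 minus AM30-3F4. It gave 0 to 13 in the sorted clones alone, 0 to 5 with KLS cells, 0 to 1 and 0 to 3 in the responses of AFT024 and BFC012, 0 to 1 in their difference, 14 to 15 for 14F1-1, 7 to 15 over the lines of set 1 and 30 in every case over set 4. The cause of these changes was not tested, though leaving out arrays also leaves fewer for the test. Each line is represented by 3 arrays of 1 line, culture temperature and strain go with some lines, and signal near background limits low genes, although no member lay in the lowest quartile.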
